A study of Mus musculus with 12 samples.

Results

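The comparison described here was that of wild-type (WT) mouse embryonic stem cells (ESCs) grown in 2i with WT ESCs grown in serum, by RNA sequencing of cells sorted for the G1 phase. Its members were the gene symbols of the deposited expression table, apart from the genes of small RNA species, which gave 23583 of 24881 symbols. They were measured in 2 libraries of WT 2i ESCs and 2 libraries of WT serum ESCs, out of 8 libraries in the table and 12 in the series. The other 4 libraries of the table came from P53-/- ESCs in the same pair of media and were used to share the estimate of spread and as a second culture contrast. The remaining samples, which include P21-/- ESCs, were not analysed here. All the cells carried the FUCCI reporters, fluorescent proteins that rise and fall with the phases of the cell cycle, in the R1 line. The P53-/- cells derived from it by CRISPR-Cas9 cutting of Trp53 and cloning, and 2 such clones were sequenced per the study, but the labels do not tie a library to a clone. The labels do not state whether the libraries of a group came from separate cultures, and p-values therefore measure only the spread between these libraries, which may be technical.

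Mouse ESCs are taken from the early embryo, from the inner cells of the blastocyst, and can form every lineage of the embryo. In serum medium with leukemia inhibitory factor (LIF), FGF4 made by the cells signals through the kinases MEK and ERK, and a fraction of the cells drifts toward differentiation. 2i medium is free of serum and holds LIF with an inhibitor of MEK and an inhibitor of GSK3, the kinase that marks beta-catenin for destruction. Cells in 2i are called ground state or naive. They are known for low DNA methylation and a longer G1 phase.

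Values are FPKM, fragments scaled to the length of the transcript and to the mapped fragments of the library, as the authors deposited them. A gene was tested when its mean over the 8 libraries reached 0.5 FPKM, which 12369 of the 23583 symbols (52.4%) did. Each log2 fold change is 2i minus serum on the log2(FPKM + 0.1) scale, which understates the change of low genes, and stands with its standard error (SE) from limma. A gene was called where the limma adjusted p was under 0.1 and the fold change over 1.5. With 2 libraries a group, an exact permutation test has a smallest p of 0.33, so no test of single values was run. The table holds no read counts, and its low values put the depth at about 7900000 and 5200000 fragments for the 2i libraries and 13000000 and 7100000 for the serum libraries.

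The paired libraries of a medium resembled each other, with a Pearson r over genes of 0.969 in 2i and 0.985 in serum, where genes are not independent replicates. Of all FPKM in a WT library, 93.5% to 99.4% belonged to small RNA genes, more in serum, while the sum of the other genes lay between 419504 and 478843 FPKM. The summed level of 12 defining ESC markers was 4309 and 3828 FPKM in 2i and 3939 and 4182 FPKM in serum. The 18 fibroblast markers, which would report feeder cells, summed to 12.9 and 17.3 FPKM in 2i and 16.1 and 16.2 FPKM in serum, with 8 to 10 of them at 0, and the collagen genes Col1a2 and Col3a1 were at 0 in all 4 WT libraries. The WT 2i libraries differed from each other by chromosome: the median of library 2 minus library 1 on the log2 scale ran from -0.31 on chromosome 6 to 0.30 on chromosome 12, against -0.02 to 0.06 between the serum libraries. The part of these differences in the results was not tested beyond the alternatives given at the end.

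In WT ESCs 3415 genes were higher in 2i (27.6% of those tested) and 3527 were lower (28.5%), 56.1% in all. The median change was 1.29 among the genes that rose and -1.19 among those that fell. Beyond a log2 fold change of 3, on the other hand, rises outnumbered falls, with 366 against 128 genes. Both 2i libraries lay above both serum libraries for 5024 genes (40.6%) and below both for 5157 genes (41.7%). The plot of the 2 media against each other shows how far the most changed ones stood from the rest.

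**Figure D1:**
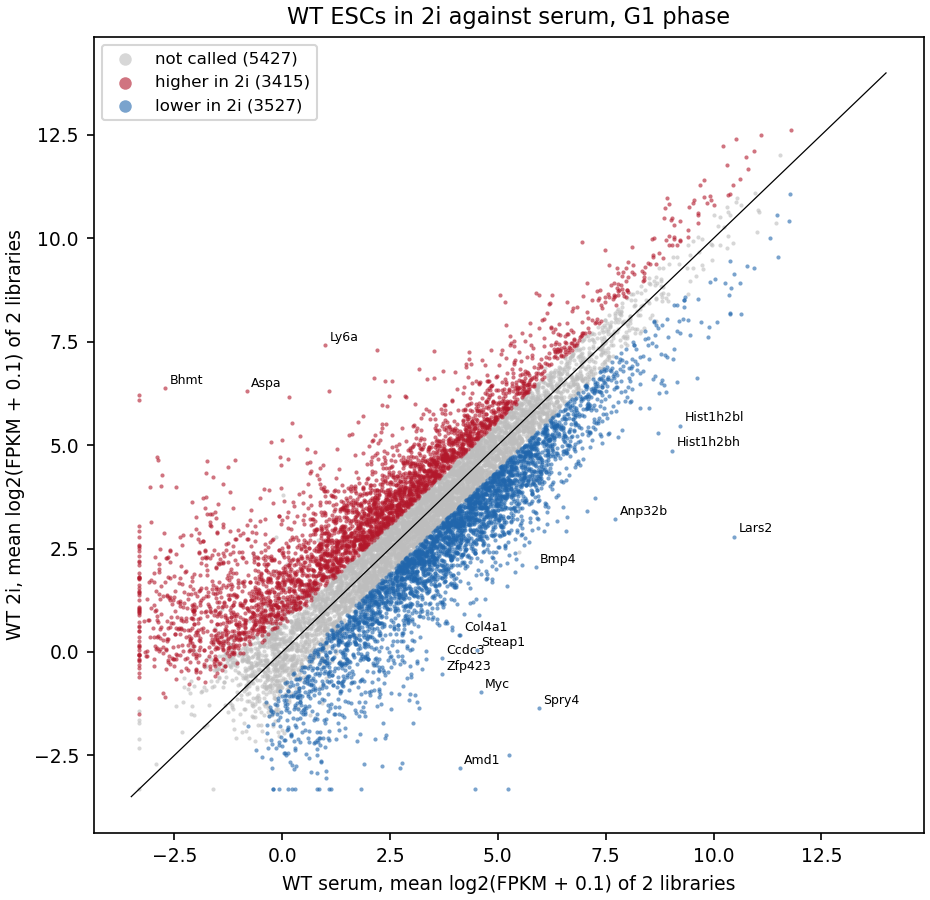
Each point is 1 of the 12369 genes tested, with the mean log2(FPKM + 0.1) of the 2 WT serum libraries on the x axis and that of the 2 WT 2i libraries on the y axis, called genes in red (higher in 2i, 3415) or blue (lower, 3527) and the line of equality in black. Called genes flank the line at every level, and Bhmt (log2 fold change 9.09) and Lars2 (-7.70) lie farthest from it among the 15 labelled genes.

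Among genes above 0 in all 4 WT libraries with a mean of at least 5 FPKM, the largest rise was that of Bhmt, the enzyme that makes methionine from homocysteine and betaine. Bhmt was at 141 and 49.3 FPKM in 2i and at 0.0373 and 0.0703 FPKM in serum. Both 2i libraries were far above both serum libraries, and the log2 fold change was 9.09 (SE 0.46, adjusted p = 1.87e-05). Aspa, the enzyme that cleaves N-acetylaspartate, was at 104 and 59.7 FPKM against 0.260 and 0.788 FPKM, a log2 fold change of 7.12 (SE 0.42). Ly6a, the surface protein also called Sca-1, was at 185 and 157 FPKM against 1.46 and 2.45 FPKM, a change of 6.42 (SE 0.30). The other genes among the 12 largest rises were Tnni1 (6.35), Xlr3c (6.09), 1700013H16Rik (5.99), the glutathione transferase Gstm2 (5.74), the MHC class II chain H2-Eb1 (5.73), Zscan5b (5.73), Calr4 (5.56), Pramel6 (5.50) and the annexin Anxa8 (5.44). Xlr3c shares 72.1% of its 50-base stretches with other genes, so the split of reads between the copies is uncertain.

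Among the same genes the largest fall was that of Lars2, the mitochondrial leucyl-tRNA synthetase. Lars2 was at 6.49 and 7.15 FPKM in 2i and at 359 and 5718 FPKM in serum. The log2 fold change was -7.70 (SE 1.02), or -5.70 without serum library 2 and -9.69 without serum library 1. Its serum level rose with the library's share of FPKM in small RNA genes. That share was 97.4% and 99.4% in these WT serum libraries. P53-/- serum libraries lay between, with Lars2 at 1702 and 2116 FPKM and shares of 98.8% and 99.1%. In 2i, over both genotypes, Lars2 was at 6.49 to 7.62 FPKM and the share was 92.7% to 94.0%. Whether the fall was that of the synthetase transcript was not tested. Spry4, an inhibitor of receptor tyrosine kinase signalling, had the next largest fall. It was at 0.208 and 0.399 FPKM in 2i and at 63.4 and 60.6 FPKM in serum, a log2 fold change of -7.31 (SE 0.27, adjusted p = 4.94e-06). Amd1, which makes decarboxylated S-adenosylmethionine for polyamine synthesis, was at 0.0425 FPKM in both 2i libraries and at 16.5 and 18 FPKM in serum. Its change of -6.93 (SE 1.56) is uncertain, since it shares 79.2% of its 50-base stretches with another gene and 1 of the P53-/- 2i libraries was at 9.39 FPKM. The rest of the 12 largest falls among these genes were Myc (-5.58), the histone chaperone Anp32b (-4.52), Steap1 (-4.45), the zinc finger factor Zfp423 (-4.25), the histone gene Hist1h2bh (-4.18), Ccdc3 (-3.85), the ligand gene Bmp4 (-3.83), the histone gene Hist1h2bl (-3.76) and the collagen IV chain Col4a1 (-3.72).

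The promoters shown here for 3 genes at each end differed in CpG content, the density of the dinucleotide that DNA methyltransferases modify. The 250 bases before the start are shown for the 3 largest rises and the 3 largest falls that had an entry in the RefSeq promoter table (build GRCm38.p6, while the submitters' notes name mm9), read 5′ to 3′ on the gene's strand with each CpG in capitals. They lie at chr13:93637759-93638008 on the minus strand (Bhmt), chr11:73324638-73324887 minus (Aspa), chr1:135799171-135799420 plus (Tnni1), chr9:123366677-123366926 plus (Lars2), chr10:40302189-40302438 minus (Amd1) and chr4:46450676-46450925 plus (Anp32b).
Bhmt: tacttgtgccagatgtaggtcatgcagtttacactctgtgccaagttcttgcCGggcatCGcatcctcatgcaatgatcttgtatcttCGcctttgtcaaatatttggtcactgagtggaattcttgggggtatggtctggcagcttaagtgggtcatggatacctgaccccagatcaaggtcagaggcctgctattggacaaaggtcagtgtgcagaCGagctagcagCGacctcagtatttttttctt
Aspa: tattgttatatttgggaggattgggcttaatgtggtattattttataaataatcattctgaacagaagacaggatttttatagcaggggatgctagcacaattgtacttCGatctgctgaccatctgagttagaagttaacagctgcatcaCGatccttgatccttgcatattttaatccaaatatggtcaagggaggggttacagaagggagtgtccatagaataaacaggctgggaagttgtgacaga
Tnni1: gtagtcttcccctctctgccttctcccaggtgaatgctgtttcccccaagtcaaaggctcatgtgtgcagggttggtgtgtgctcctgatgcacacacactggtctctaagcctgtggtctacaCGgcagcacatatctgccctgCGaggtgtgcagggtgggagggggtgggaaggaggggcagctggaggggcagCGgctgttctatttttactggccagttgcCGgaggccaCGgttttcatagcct
Lars2: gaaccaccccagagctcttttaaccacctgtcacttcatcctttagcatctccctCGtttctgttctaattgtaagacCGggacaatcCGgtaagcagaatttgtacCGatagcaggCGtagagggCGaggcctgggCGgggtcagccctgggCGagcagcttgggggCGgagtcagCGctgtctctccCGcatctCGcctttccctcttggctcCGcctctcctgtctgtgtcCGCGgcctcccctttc
Amd1: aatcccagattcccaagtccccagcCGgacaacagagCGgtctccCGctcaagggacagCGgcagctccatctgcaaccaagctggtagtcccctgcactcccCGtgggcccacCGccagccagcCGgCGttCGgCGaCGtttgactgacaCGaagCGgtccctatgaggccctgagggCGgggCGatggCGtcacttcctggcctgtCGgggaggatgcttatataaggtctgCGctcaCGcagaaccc
Anp32b: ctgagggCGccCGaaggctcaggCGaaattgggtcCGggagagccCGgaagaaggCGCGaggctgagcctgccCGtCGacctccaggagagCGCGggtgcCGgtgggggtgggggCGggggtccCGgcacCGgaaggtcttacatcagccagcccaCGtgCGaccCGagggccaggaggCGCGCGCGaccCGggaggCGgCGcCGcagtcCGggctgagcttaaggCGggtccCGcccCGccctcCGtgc
The genes that rose held 5 (Bhmt), 2 (Aspa) and 5 (Tnni1) CpG sites in these windows, and the genes that fell held 15 (Lars2), 19 (Amd1) and 31 (Anp32b). The promoters in the table covered 9771 of the 12369 genes tested, with CpG sites counted over the 300 bases from 250 before to 50 after the start. Of 594 genes with at most 4 CpG sites, 37.5% were higher in 2i and 24.2% lower. Of 2260 genes with 30 or more, 16.6% were higher and 39.6% lower, and the median log2 fold change was -0.35 against 0.40 in the CpG-poorest class. The shares did not follow the classes step by step, since 39.0% of the genes with 5 to 9 sites were higher and 21.6% lower.

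Among the most abundant called genes the translation genes rose and the histone genes fell. Eef1a1, the elongation factor that brings aminoacyl-tRNA to the ribosome, was at 6260 and 6435 FPKM in 2i and 3582 and 3541 FPKM in serum (log2 fold change 0.83, SE 0.26). Rpl32 (1.39), Rplp1 (1.88), Rps14 (1.18) and the ribosomal scaffold protein Rack1 (2.00) were the other abundant genes that rose. With a correction for transcript GC content and length, described further on, Eef1a1 (0.53), Rps14 (0.45) and Hist2h2bb (-0.08) were not called. On the side of the falls stood the histone genes Hist2h2bb (-0.70), Hist1h4h (-1.33), Hist1h4c (-1.96) and Hist1h4a (-1.29) and the nucleolar chaperone Npm1 (-0.91). With quantile normalization Npm1 was not called, and Hist2h2bb turned direction without a call (0.38). The serum libraries were uneven for the histone genes: Hist1h4c was at 782 and 706 FPKM in 2i but at 1791 and 4637 FPKM in serum. Hist2h2bb and Hist1h4a were no longer called without serum library 2 or without either 2i library, and histone and ribosomal protein genes share reads with near-identical copies.

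A further set of called genes was listed at 0 in both libraries of a medium, 58 in serum and 13 in 2i, and no WT fold is given for them. Of those absent in serum, Oaz1-ps had the highest level in 2i, at 92.0 and 60.2 FPKM, followed by Hist1h2ap at 74.3 and 61.5 FPKM and LOC110008574 at 10.5 and 6.24 FPKM. The chemokine gene Pf4 was at 12.1 and 3.74 FPKM in 2i, and the homeobox gene Gsc at 6.85 and 8.14 FPKM. In the other direction Hist1h2ao was at 58.7 and 23.7 FPKM in serum, the trypsin inhibitor gene Spink1 at 15.4 and 32.0 FPKM, the antisense gene Gm16104 at 2.92 and 4.10 FPKM, Hmga1b at 2.99 and 1.34 FPKM and the receptor modifier Ramp3 at 2.58 and 1.68 FPKM. Oaz1-ps, Hist1h2ap, Hist1h2ao and Hmga1b share 86.6% to 93.0% of their 50-base stretches with other genes, so which copy the reads came from is uncertain.

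2i blocks MEK, and the genes that ERK induces and that feed back on it were the first group examined. Of 27 feedback and target genes tested, 13 were lower in 2i, 6 were higher and 8 were not called, with a median of -0.52 against -0.00 over all genes. Inhibitors of the pathway were among the falls. Spry2 was at 10.9 and 6.92 FPKM in 2i and 52.0 and 55.8 FPKM in serum (-2.62, SE 0.28), and Spred1 at 7.81 and 8.78 FPKM against 39.9 and 52.1 FPKM (-2.45, SE 0.19). Dusp6, the phosphatase that removes phosphate from ERK, was at 6.61 and 8.27 FPKM against 34.8 and 40.2 FPKM (-2.32, SE 0.21). The phosphatase gene Dusp14 rose (2.65). The ETS factors Etv4 (-2.53) and Etv1 (-2.49) fell as well, while Etv5 was at 68.1 and 73.5 FPKM against 60.2 and 60.6 FPKM and was not called (0.23).

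Rises in the same list included immediate early genes. Fos, a subunit of AP-1 that growth factors induce within minutes, was at 37.0 and 39.4 FPKM in 2i and 3.58 and 2.48 FPKM in serum, a log2 fold change of 3.63 (SE 0.34, adjusted p = 0.000102). Jun was at 5.96 and 6.44 FPKM against 1.10 and 1.71 FPKM (2.09, SE 0.28). The ephrin receptor gene Epha4 (2.42) and Ier5 (2.36) rose with them. Egr1, another immediate early gene, was spread over 6.84 and 1.92 FPKM in 2i and 5.53 and 5.03 FPKM in serum and was not called. Among 22 components of the pathway 12 fell and 3 rose (median -0.91): the ligand Fgf4 was higher in 2i, at 61.7 and 68.5 FPKM against 33.3 and 32.7 FPKM (0.98, SE 0.17), as was the kinase Map2k2 (0.81), whereas the kinase Braf (-2.23), the adaptor Grb2 (-1.79) and the receptor Fgfr3 (-2.73) fell.

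2i also stabilises beta-catenin, and 16 of its target genes passed the filter. Of these, 4 rose and 7 fell in P53-/- ESCs, with a median of -0.40. In WT ESCs 6 rose and 5 fell, beside 27.6% and 28.5% of all genes, with a median of 0.69. Sp5, the target most often used as a sensor of the pathway, was at 4.50 and 16.6 FPKM in 2i and 0.221 and 0.208 FPKM in serum (4.80, SE 0.55, adjusted p = 0.000246). The brachyury gene T rose too, and Apcdd1 was at 13 and 8.25 FPKM against 1.78 and 1.75 FPKM (2.48, SE 0.25). Axin2, the negative regulator, was at 5.98 and 8.10 FPKM against 3.57 and 3.01 FPKM (1.06, SE 0.27). Cdx1 (1.18) and Notum (0.97) were the others that rose, neither of them called with the GC and length correction. Myc, also counted as a beta-catenin target, was at 0.895 and 0.161 FPKM against 22 and 26.9 FPKM, and the receptors Fzd7 (-2.46) and Lgr4 (-1.27), the ligase Znrf3 (-0.69) and the factor Tcf7 (-0.81) fell. After a correction of each library for transcript GC content and length, described with those properties, 4 of the 16 rose and 6 fell. Of 25 receptors and transducers 6 rose and 7 fell, beside 27.6% and 28.5% of all genes, and 3 fell after the correction. The gene of beta-catenin, Ctnnb1, was at 237 and 256 FPKM against 238 and 243 FPKM.

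BMP signalling reaches the Id genes, which hold back neural differentiation, and its list of 19 had 7 higher and 10 lower members. Id genes parted. Id3 was at 179 and 129 FPKM in 2i and 19.9 and 20.4 FPKM in serum (2.91, SE 0.18), while Id1 was at 9.27 and 6.02 FPKM against 94.3 and 95.4 FPKM (-3.65, SE 0.20). Id4 rose (2.54) and Id2 fell (-0.85), Id2 without a call with chromosome medians, without 2i library 1 or without serum library 2. The ligand Bmp4 was at 3.72 and 4.36 FPKM in 2i and 59.0 and 58.1 FPKM in serum (-3.83, SE 0.25), against a rise of Bmp7 (2.27). In the Nodal pathway 6 of 17 rose and 7 fell, beside 27.6% and 28.5% of all genes, and 4 fell with each library centred on its chromosome medians, while the GC and length correction gave 4 rises and 6 falls. The ligand Nodal rose from 20.7 and 19.8 FPKM in serum to 69.0 and 48.3 FPKM in 2i (1.51, SE 0.19), and the activin subunit Inhbb fell (-2.54) with the receptor Acvr2b (-2.23) and the co-repressor Skil (-2.19). Of 23 genes of the LIF pathway 7 rose and 6 fell, near the 27.6% and 28.5% of all genes. The receptor Lifr was at 14.7 and 15.2 FPKM against 31.3 and 32.2 FPKM (-1.08, SE 0.11) and not called with the GC and length correction (-0.52), its partner Il6st fell (-1.18), Socs3, the feedback inhibitor, fell (-0.83), and Stat3 was at 32.0 and 30.9 FPKM against 28.7 and 27.5 FPKM without a call.

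**Figure D2:**
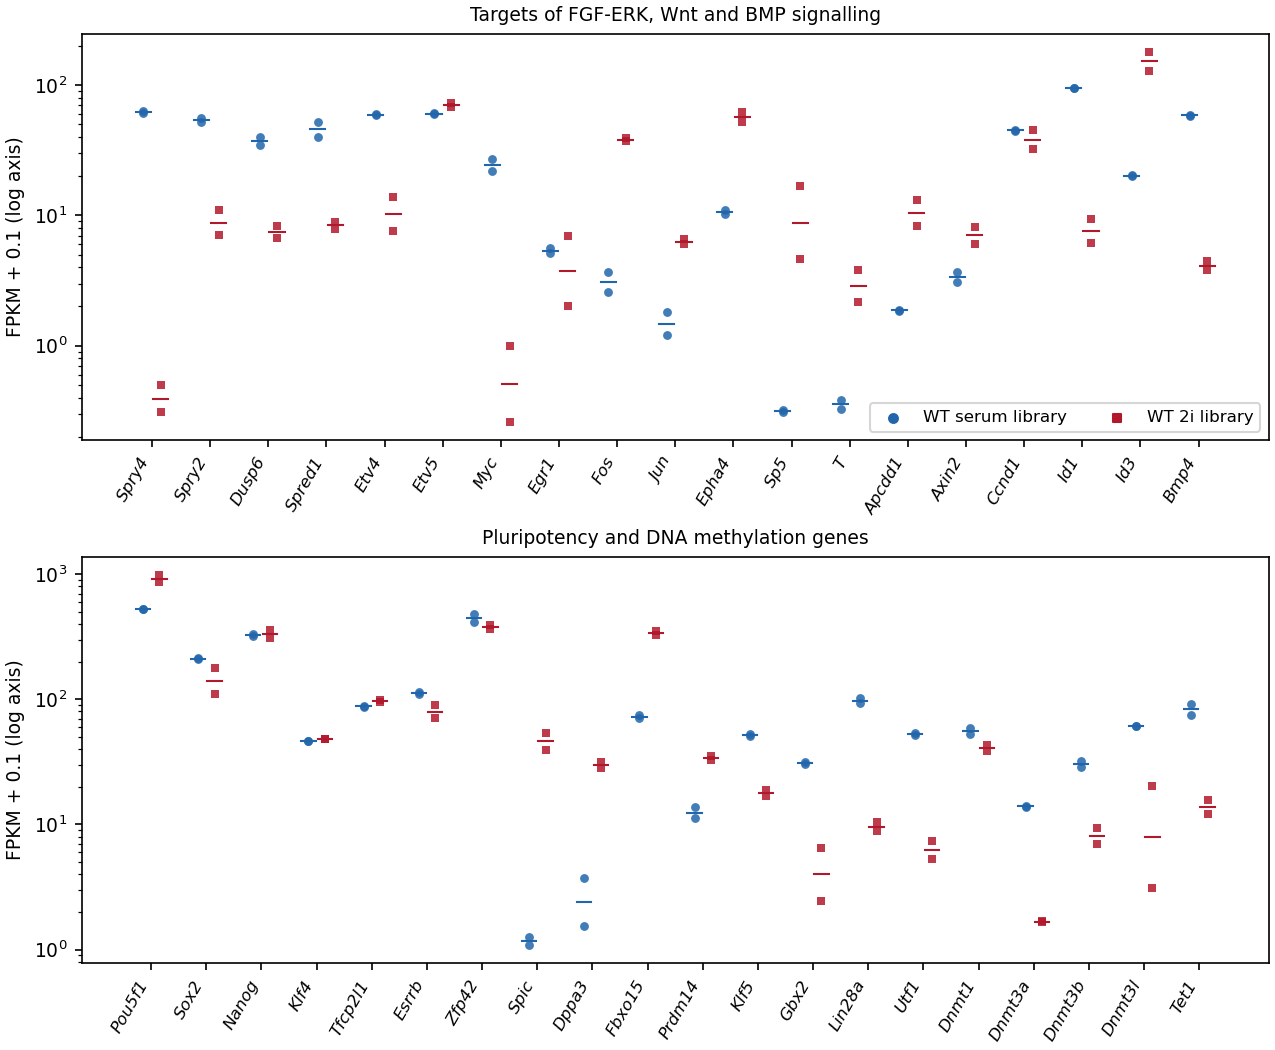
Each point is 1 WT library on a log axis of FPKM + 0.1, serum libraries as blue circles and 2i libraries as red squares with a line at each pair's mean on that axis, for targets of FGF-ERK, Wnt and BMP signalling (top) and for pluripotency and DNA methylation genes (bottom). Spry4, Myc and Lin28a lie lower in both 2i libraries, Spic and Sp5 higher, and the 4 libraries of Nanog lie between 311 and 359 FPKM.

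Pluripotency factors did not move as a block. Pou5f1, which encodes OCT4, was at 982 and 860 FPKM in 2i and 523 and 532 FPKM in serum (0.80, SE 0.15, adjusted p = 0.00286), although its change was 0.01 after the GC and length correction. Nanog was at 359 and 311 FPKM against 323 and 335 FPKM, with overlapping media and a change of 0.02 (SE 0.17). Sox2 was at 110 and 178 FPKM against 211 and 213 FPKM (-0.60, SE 0.22), and without either 2i library 1 or a serum library it was not called. Nor was Sox2 called with median-ratio scaling, quantile normalization or chromosome medians, or in a fit of the 4 WT libraries alone. Of the 16 core factors 11 fell and 2 rose, with a median of -1.16. Among those that fell were Lin28a, the RNA-binding protein that blocks let-7 maturation, at 10.3 and 8.80 FPKM against 102 and 93.6 FPKM (-3.35, SE 0.25), Utf1 (-3.07), L1td1 (-2.61), Zfp281 (-2.15) and Sall4 (-1.85). The GC and length correction left 11 of the 16 lower.

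The naive factors gave 10 rises and 4 falls in 20 genes (median 0.44), beside 27.6% and 28.5% of all genes. With the GC and length correction they gave 9 rises and 6 falls (median 0.22). Spic, an ETS factor, had the largest rise, from 1.17 and 0.992 FPKM in serum to 54.2 and 39.5 FPKM in 2i (5.30, SE 0.32). Dppa3, which encodes Stella, a protein that shields DNA from methylation, was at 28.1 and 31.5 FPKM against 1.44 and 3.66 FPKM (3.63, SE 0.35). Fbxo15 (2.22), Alpl (1.74), Prdm14 (1.45), Tcl1 (1.25), Pecam1 (1.05) and Klf2 (0.70) rose with Nodal and Fgf4, of which Tcl1 and Klf2 (-0.20) were not called with the GC and length correction. Klf4 was at 48.2 and 48.3 FPKM in 2i and 46.5 and 46.7 FPKM in serum, and Tfcp2l1 at 94.7 and 98.7 FPKM against 88.9 and 87.3 FPKM. Neither was called, and neither was Zfp42 (-0.23) or Esrrb (-0.50). Gbx2 (-2.95), Klf5 (-1.54), Nr5a2 (-1.18) and Tbx3 (-0.74) fell, Tbx3 without a call with quantile normalization or chromosome medians. In the list of formative and primed markers, genes of the epiblast after implantation, 8 of 16 fell and 3 rose (median -0.57). With the GC and length correction 9 fell and 1 rose (median -1.27). Sox4 (-2.71), Sox3 (-2.95) and Pou3f1 (-1.05) were lower in 2i, Pou3f1 without a call when 2i library 2 or either serum library was left out. Zic2 (1.72) and Foxd3 (0.96, or 0.15 and not called with the correction) were higher. Otx2 overlapped at 13.5 and 5.62 FPKM against 6.78 and 6.81 FPKM.

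The enzymes of de novo DNA methylation, Dnmt3a and Dnmt3b, were lower in 2i. Dnmt3a was at 1.55 and 1.59 FPKM in 2i and 13.8 and 14 FPKM in serum (-3.07, SE 0.16, adjusted p = 1.89e-05), and Dnmt3b at 6.90 and 9.27 FPKM against 32.3 and 28.6 FPKM (-1.91, SE 0.17). Their cofactor Dnmt3l was at 20.2 and 2.99 FPKM against 60.9 and 60.6 FPKM (-2.94, SE 0.71), which was -1.58 without 2i library 2 and -4.30 without 2i library 1. The maintenance enzyme Dnmt1 was at 38.8 and 42.8 FPKM against 59.3 and 52.9 FPKM and its partner Uhrf1 at 163 and 159 FPKM against 126 and 115 FPKM, neither past the fold threshold. On the erasing side Tet1 was at 15.5 and 12.1 FPKM against 75.4 and 92.4 FPKM (-2.60, SE 0.17), and Tet2 (-0.94) and the glycosylase Tdg (-1.64) fell as well. With the GC and length correction Tet2 was not called (-0.02). In all, 12 of 22 genes of this group fell, or 8 with the correction, and 1 rose, or 2. The rise was that of Prdm14, a repressor of the Dnmt3 genes, at 35.4 and 32.5 FPKM against 13.6 and 11.2 FPKM.

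Germline genes often carry promoter methylation in somatic cells. Of 41 tested 22 were higher in 2i and 5 lower (median 0.92), beside 27.6% and 28.5% of all genes. In P53-/- ESCs 17 were higher and 11 lower, with a median of 0.31. The GC and length correction gave 21 and 7 in WT ESCs. Dazl, an RNA-binding protein of germ cells, was at 41.4 and 44.3 FPKM in 2i and 4.14 and 5.66 FPKM in serum (3.12, SE 0.44). Asz1, a protein of the piRNA pathway, was at 4.55 and 6.38 FPKM against 0.0452 and 0.0855 FPKM (5.06, SE 0.99), and Fkbp6 at 120 and 73.7 FPKM against 5.39 and 6.08 FPKM (4.02, SE 0.24). The X-linked homeobox genes Rhox6 (5.09), Rhox1 (3.78) and Rhox9 (3.52) and the meiotic cohesin Rec8 (2.63) rose too. The germ cell helicase gene Ddx4, in contrast, was at 1.97 and 2.01 FPKM against 11.9 and 11.8 FPKM (-2.51, SE 0.17), and Mael (-2.87) and Tdrkh (-2.48) fell with it. Of 37 imprinted genes 11 rose and 13 fell, beside 27.6% and 28.5% of all genes: Peg10 was at 16.3 and 6.83 FPKM against 123 and 146 FPKM (-3.65, SE 0.34), and Zdbf2 (-3.46), Kcnq1ot1 (-3.30), Phlda2 (-2.43) and Meg3 (-2.25) fell, while Grb10 (2.07), Plagl1 (1.71) and Ndn (1.72) rose. Of the 9 genes of the totipotent-like state that passed the filter 1 rose and 1 fell with a median of 1.23, while 5 rose in a fit of the 4 WT libraries alone and 0 without any 1 of these libraries, and the Zscan4 copies cannot be told apart.

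Polycomb complexes mark silent developmental genes with methylated or ubiquitinated histones, the Hox genes among them. Of 33 subunits 15 fell and 4 rose (median -0.47). Ezh2, the methyltransferase, was at 27.6 and 25.3 FPKM in 2i and 95.6 and 107 FPKM in serum (-1.93, SE 0.13), Jarid2 at 21.2 and 22.2 FPKM against 97.2 and 92.7 FPKM (-2.13, SE 0.11), and Eed (-1.22), Suz12 (-1.19) and Rnf2 (-1.07) fell. Rises included those of Cbx8 (2.71), Phf1 (1.56) and Pcgf1 (1.37). With the GC and length correction 9 of 33 subunits fell, where 26.6% of all genes did, and Suz12, Rnf2 and Pcgf1 were then not called. Of 39 Hox genes 15 passed the filter, 12 of which rose. Several passed by their level in 2i alone, so that a fall could hardly have been seen. Without the filter 25 rose and 0 fell, in a fit that called 4119 genes higher and 3928 lower. The Hox genes so added were at or near 0 in serum, and a fall could hardly have been seen in them either. Hoxd8 was at 3.26 and 3.14 FPKM in 2i and 0.189 and 0.0892 FPKM in serum (3.82, SE 0.34), Hoxa9 at 1.92 and 0.999 FPKM against 0.0735 and 0.0460 FPKM (3.23, SE 0.60) and Hoxb13 at 11.6 and 3.27 FPKM against 0.119 and 0.226 FPKM (4.56, SE 0.78). No Hox gene but Hoxb13 and Hoxa10 (3.81) passed 4 FPKM in a library.

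Lineage markers were mixed within each lineage. Of 16 primitive endoderm genes 8 rose, or 5 without 2i library 1, and 5 fell: Apoe was at 361 and 469 FPKM in 2i and 64.8 and 54.5 FPKM in serum (2.79, SE 0.23), Gata4 at 2.40 and 1.28 FPKM against 0.830 and 0.614 FPKM (1.19, SE 0.43; 0.87 and not called with the GC and length correction), and Gata6, which decides the lineage, stayed under the filter at 0.238 to 0.397 FPKM. Of 17 primitive streak and mesoderm genes 8 rose and 4 fell (2 without either serum library), and 6 rose and 6 fell with the GC and length correction. Des rose (2.32) beside Gsc and T, Tcf15 fell (-2.76), and Eomes was at 1.76 and 1.60 FPKM against 2.53 and 2.37 FPKM without a call. Of 20 neural genes 6 rose and 9 fell, beside 27.6% and 28.5% of all genes, with the neurofilament genes Nefl (3.50) and Nefm (2.46) higher in 2i and Gap43 (-5.53), Sox11 (-4.26) and Elavl3 (-3.33) lower. The simple epithelial keratin Krt8 was at 103 and 51.9 FPKM against 4.77 and 6.31 FPKM (3.71, SE 0.44), among 4 rises and 1 fall in 12 trophoblast and keratin genes. With the GC and length correction this list gave 3 rises and 3 falls, with a median of 0.09.

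All libraries were prepared from cells sorted as G1, and the genes of the later phases still differed. Of 42 genes that peak in G2 and mitosis 35 were lower in 2i and 1 was higher, with a median of -1.39. Their summed level was 987 and 1076 FPKM in 2i and 2402 and 2392 FPKM in serum. Mki67, the proliferation antigen, was at 4.36 and 5.65 FPKM in 2i and 38.9 and 37.3 FPKM in serum (-2.91, SE 0.17), Cenpf at 3.01 and 3.23 FPKM against 28.1 and 29.6 FPKM (-3.17, SE 0.14), and Ccna2, which encodes cyclin A2, at 28.8 and 30.4 FPKM against 96.9 and 94.0 FPKM (-1.69, SE 0.10). Cdk1, their kinase, was at 28.9 and 25 FPKM against 24.2 and 25.8 FPKM, and Aurkb was not called either (-0.04). In bulk samples fewer cells with these transcripts and less RNA per cell cannot be told apart, and whether the G1 gates of the 2 media held the same share of other cells was not tested. The GC and length correction gave 32 lower and 1 higher.

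Promoters of these genes are known to hold the cell cycle genes homology region (CHR), the letters TTTGAA, through which the DREAM complex represses them in G1. The letters were found on either strand within the 300-base window in 24 of the 37 G2 and mitosis genes with a promoter (64.9%), in 11.6% of all promoters and in 13.5% of those of genes that fell. The match is a description and not a binding site. It is shown for 3 of the genes with large falls, with up to 30 bases on either side of the match nearest to the start, ending at the start, and each match in capitals (GRCm38.p6, gene strand): Mki67 at chr7:135716442-135716507 minus, Ect2 (-2.34) at chr3:27153957-27154022 minus and Kif11 (-1.76) at chr19:37376333-37376381 plus, where the letters are on the opposite strand.
Mki67: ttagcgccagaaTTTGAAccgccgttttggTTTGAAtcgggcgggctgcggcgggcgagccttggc
Ect2: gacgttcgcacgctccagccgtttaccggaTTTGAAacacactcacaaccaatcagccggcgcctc
Kif11: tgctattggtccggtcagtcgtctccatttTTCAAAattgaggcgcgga
The first letter of the match nearest to the start lies 98, 114 and 19 bases before the start.

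Regulators of G1 were lower as well, 20 of 40 against 5 that rose (median -0.55), and 21 against 3 after the correction. Ccnd2, which encodes cyclin D2, was at 0.294 and 0.290 FPKM in 2i and 8.97 and 8.92 FPKM in serum (-4.53, SE 0.28). Ccne1, for cyclin E1, was at 63.8 and 45.3 FPKM against 174 and 175 FPKM (-1.70, SE 0.20) and Ccne2 at 10.8 and 13.2 FPKM against 49.9 and 60.1 FPKM (-2.19, SE 0.21). These cyclins drive passage from G1 into S phase, and the factors E2f8 (-3.42), E2f7 (-2.62), E2f2 (-2.44) and E2f3 (-2.35) and the ligase subunit Skp2 (-1.69) fell with them. Ccnd1 overlapped at 32.1 and 44.8 FPKM against 45.5 and 44.4 FPKM, and Cdk2 was at 41.9 and 34.9 FPKM against 38.4 and 38.7 FPKM. Among the inhibitors of cyclin-dependent kinases Cdkn2b, for P15, was at 8.79 and 6.85 FPKM against 1.69 and 1.55 FPKM (2.20, SE 0.29), Cdkn2d (1.28) and Cdkn2c (1.20) rose but were not called with the GC and length correction, and Cdkn1b was not called (-0.21). The rises numbered 3 without 2i library 2 or serum library 2.

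The pocket proteins restrain E2F. Rb1 was at 1.44 and 1.85 FPKM in 2i and 3.26 and 3.50 FPKM in serum, a log2 fold change of -1.0 (SE 0.41, adjusted p = 0.0663). It was just past the threshold and no longer called without a serum library, without 2i library 1, or with the GC and length correction (-0.35). Rbl2, for P130, was at 2.62 and 3.33 FPKM against 3.01 and 2.72 FPKM and Rbl1, for P107, at 5.81 and 8.63 FPKM against 5.45 and 5.43 FPKM, neither of them called. Of 43 genes of replication 15 fell, 2 rose and 26 were not called, with a median of -0.10, where 28.5% of all genes fell and 27.6% rose. After the GC and length correction 12 fell and 2 rose, where 26.6% of all genes fell. With quantile normalization 8 fell and 8 rose, and without 2i library 1 the counts were 11 and 5. The rises numbered 1 without 2i library 2 or serum library 2. Rrm2, the ribonucleotide reductase subunit, was at 52.5 and 68.4 FPKM against 315 in both serum libraries (-2.39, SE 0.15), and Rfc4 (-1.83) and Gmnn (-1.10), the gene of the licensing inhibitor geminin, fell, Gmnn without a call with chromosome medians. Mcm3, Pcna and Rpa2 had changes of 0.01, 0.01 and -0.00. The E2F letters TTCCCGC stood in 15 of 33 promoters of the replication list (45.5%) and in none of the 37 of the G2 and mitosis list, beside 9.07% of all promoters.

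P53 is the transcription factor that the study removed, and its own gene is the check of the labels. Trp53 was at 26.8 and 33.7 FPKM in WT 2i and 77.6 and 75.1 FPKM in WT serum ESCs, and at 7.25 and 1.88 FPKM in P53-/- 2i and 16.8 and 3.68 FPKM in P53-/- serum ESCs. It was below the WT level of the same medium in each P53-/- library. The WT media did not overlap, but because the P53-/- libraries vary widely for this gene the change of -1.34 had an SE of 0.74 and was not called (adjusted p = 0.151). With the GC and length correction it was called lower in 2i (-1.68, adjusted p = 0.0777).

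Of 47 targets of P53 tested 19 rose and 8 fell (median 0.45), beside 27.6% and 28.5% of all genes. After the correction 13 rose and 9 fell, beside 23.4% and 26.6% of all genes. Cdkn1a, for P21, the target that arrests cells in G1, was at 23.9 and 15.9 FPKM in 2i and 16.2 and 18.6 FPKM in serum, with overlapping media and a change of 0.17 (SE 0.22). Dcxr was at 31.5 and 28.0 FPKM against 1.72 and 1.12 FPKM (4.32, SE 0.33), and Ephx1 at 24.2 and 29.9 FPKM against 3.53 and 2.74 FPKM (3.07, SE 0.23). Gdf15 (2.22), Plk2 (2.15), Ddb2 (1.79), the pro-apoptotic Bbc3 (1.09) and Ccng1 (0.75) rose, Bbc3 without a call after the correction (0.15). In P53-/- ESCs 17 of the 47 were higher in 2i, among them Dcxr at 4.62 and Plk2 at 4.92, and 13 were lower, with a median of 0.04. Of all genes in P53-/- ESCs, 28.5% were higher and 30.2% lower. Mdm2, the ligase that degrades P53, was at 42.8 and 54.5 FPKM against 79.7 and 69.3 FPKM (-0.62, SE 0.15) and was not called after the correction, with quantile normalization, with chromosome medians, or without 2i library 1 or serum library 1, and Pmaip1 (-2.65), Perp (-2.41) and Zmat3 (-1.61) fell. The P53 half-site was found in 10 of 38 promoters of this list (26.3%) and in 6.64% of all promoters.

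Of 27 genes of cholesterol synthesis and uptake 15 rose and 3 fell (median 0.68), and 13 and 1 after the correction. Fdps, for farnesyl diphosphate synthase, was at 248 and 181 FPKM in 2i and 72.6 and 83.9 FPKM in serum (1.44, SE 0.18). The sensor Insig1 (2.15), the factor Srebf1 (1.55) and the enzymes Mvk (1.88), Msmo1 (1.46) and Fdft1 (1.33) rose too, and Insig2 fell (-1.06). Fatty acid genes followed with 9 rises and 1 fall in 15, such as the desaturases Scd1 (1.58), Fads1 (1.45) and Fads2 (1.92) and the acetyl-CoA synthetase Acss2 (1.88), while the synthase Fasn was at 50.9 and 50.4 FPKM against 51.1 and 49.7 FPKM. The sterol element TCACNCCAC was in none of the 19 promoters of the cholesterol list and in 1.07% of all.

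In serine and one-carbon metabolism 11 of 25 rose and 3 fell (median 0.55). Aldh1l1, which oxidises formyl folate, was at 30.7 and 20.9 FPKM in 2i and 1.0 and 1.01 FPKM in serum (4.53, SE 0.34). Tdh, the threonine dehydrogenase that ESCs depend on, was at 518 and 425 FPKM against 209 and 186 FPKM (1.25, SE 0.16), and Cth (1.61), Amt (1.59) and Phgdh (0.94) rose, Phgdh without a call after the GC and length correction (0.27). Mat2a, which makes S-adenosylmethionine, was at 58.3 and 46.7 FPKM against 114 and 122 FPKM (-1.18, SE 0.17), and the glycine decarboxylase gene Gldc fell (-1.51). Of 26 genes of glycolysis 8 rose (5 without serum library 2) and 8 fell, near the 27.6% and 28.5% of all genes. The glucose transporters were opposed: Slc2a3 was at 675 and 482 FPKM against 218 and 220 FPKM (1.38, SE 0.18) and Slc2a1 at 84.9 and 84.8 FPKM against 215 and 214 FPKM (-1.34, SE 0.11). Pdk1, a kinase that inhibits pyruvate dehydrogenase, fell (-2.09), as did Hk2 (-1.19) and Ldha (-0.90), and Aldoc (2.85) and Pfkm (1.45) rose.

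Genes of the integrated stress response, which ATF4 drives when amino acids are short or translation is impaired, rose in 13 of 32 cases and fell in 3 (median 0.55). Atf3 was at 31.5 and 25.7 FPKM in 2i and 1.57 and 1.63 FPKM in serum (4.07, SE 0.17, adjusted p = 1.06e-05). Asns, for asparagine synthetase, was at 1006 and 787 FPKM against 291 and 261 FPKM (1.69, SE 0.21) and Ddit3, for CHOP, at 37.1 and 32.1 FPKM against 5.86 and 3.76 FPKM (2.85, SE 0.39). Nupr1 rose too (3.06). Atf4 itself was at 285 and 256 FPKM against 148 and 127 FPKM (0.98, SE 0.20) and was not called with the GC and length correction (0.24), and the amino acid transporter Slc7a1 fell (-1.44). The element TGATGNAAT was in 3 of 27 promoters of the list (11.1%) and in 0.409% of all.

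Of 27 basement membrane and collagen genes 7 rose and 12 fell, beside 27.6% and 28.5% of all genes. Beside Col4a1, Col4a2 was at 1.20 and 0.689 FPKM in 2i and 6.10 and 6.31 FPKM in serum (-2.64, SE 0.37), Col18a1 at 5.60 and 8.96 FPKM against 33.3 and 36.7 FPKM (-2.29, SE 0.24), and the fibronectin receptor chain Itga5 fell (-2.13), while Col5a2 rose (2.91). Of 24 genes of adhesion and of the epithelial to mesenchymal transition 8 rose and 10 fell, or 5 and 11 with the GC and length correction. The tight junction gene Cldn4 was at 162 and 94.3 FPKM against 21.2 and 20.5 FPKM (2.56, SE 0.27), and the splicing factor Esrp1 at 0.20 and 0.204 FPKM against 4.92 and 4.93 FPKM (-4.05, SE 0.38). E-cadherin, Cdh1, was at 56.2 and 45.7 FPKM against 76.2 and 74.6 FPKM (-0.57), under the fold threshold, whereas Epcam fell (-1.44). Vim, for vimentin, differed more between the 2i libraries, at 16 and 76.1 FPKM, than between the media.

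**Figure D3:**
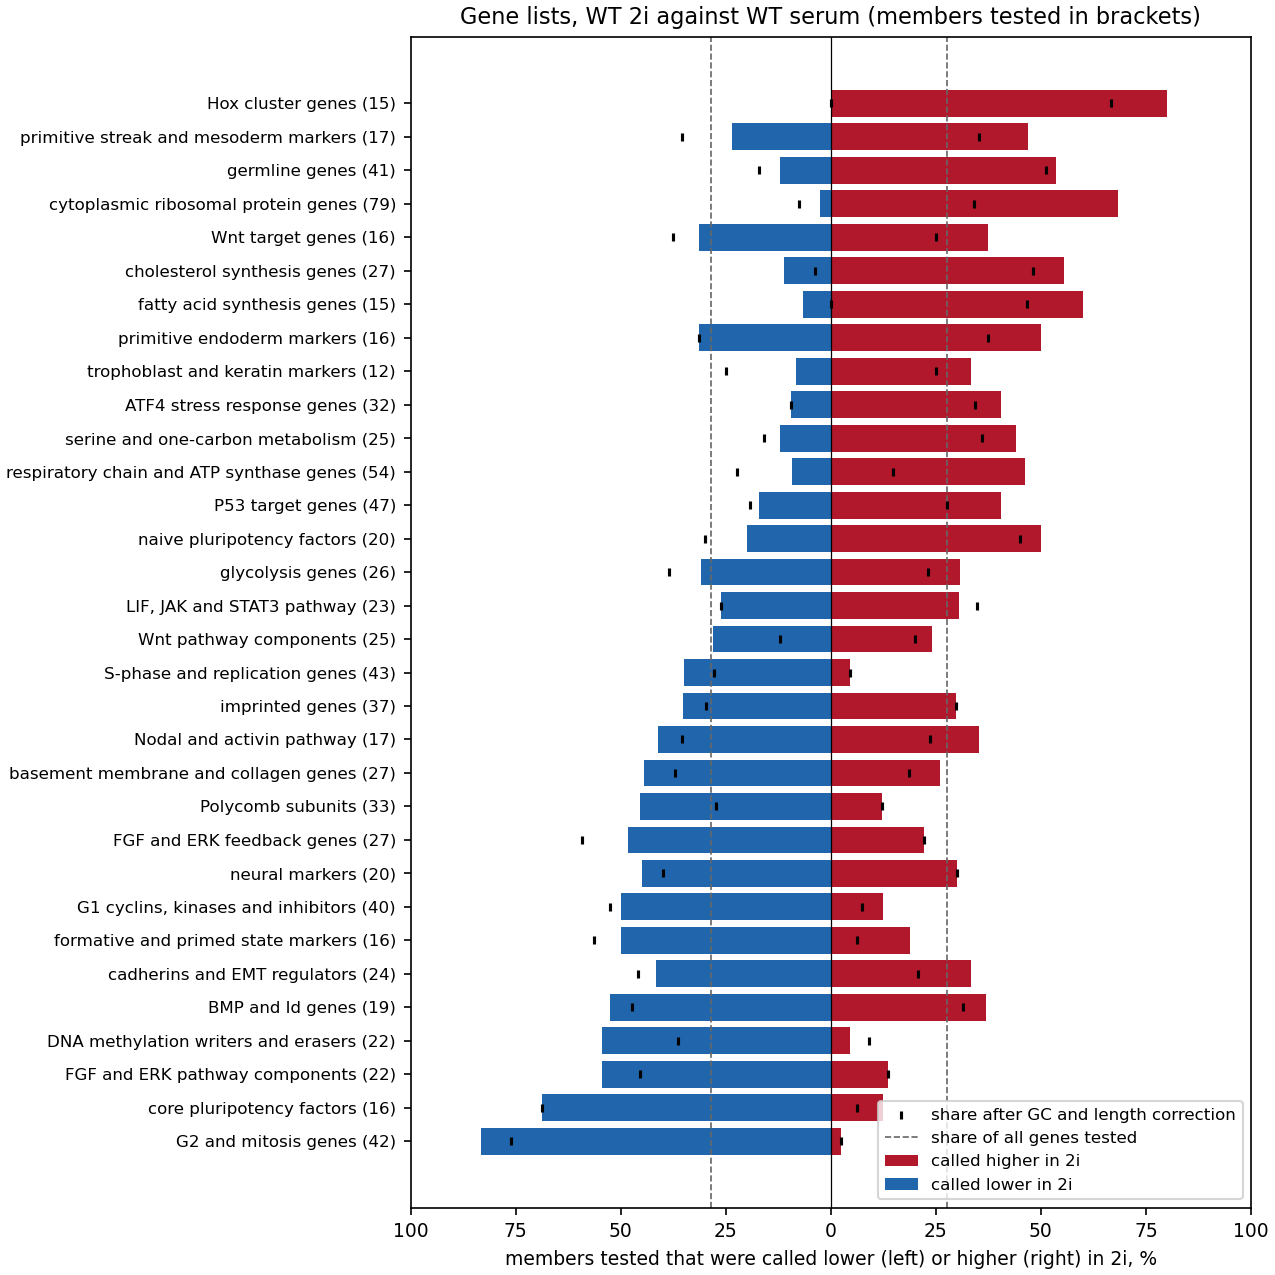
The bars give the percentage of each list's tested members (number in brackets) called higher in WT 2i ESCs (red, to the right) or lower (blue, to the left), in the order of the lists' medians, with black ticks for the shares after the GC and length correction and dashed lines at the 27.6% and 28.5% of all 12369 genes. Hox cluster genes, several of which passed the filter by their level in 2i alone, reach farthest to the right. The G2 and mitosis genes reach farthest to the left, and the ticks of the ribosomal protein and respiratory chain genes fall well short of their red bars.

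Genes of protein and energy production were examined as further groups. Of 79 cytoplasmic ribosomal protein genes 54 rose and 2 fell (median 0.84), and their sum was 106675 and 108474 FPKM in 2i against 53910 and 64065 FPKM in serum. Of 54 nuclear genes of the respiratory chain and ATP synthase 25 rose and 5 fell (median 0.49). Atp5b, the catalytic subunit of the synthase, was at 1921 and 1975 FPKM against 1000 and 963 FPKM (0.99, SE 0.17), Cox4i1 rose (1.08, or 0.11 and not called with the correction described next), and Uqcrq (-1.72) and Atp5j (-1.20) fell. The 12 housekeeping genes gave 5 rises and 1 fall, or 3 and 2 with the correction, and they summed to 11400 and 10718 FPKM in 2i and 6555 and 6362 FPKM in serum.

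The GC content and the length of transcripts moved with the culture contrast across the whole table. The median GC content was 51.9% for the ribosomal protein genes and 50.3% for the respiratory chain genes, beside 50.4% for all genes. Of 404 genes with a transcript GC content of at most 40%, 7.43% rose and 60.4% fell, with a median of -0.84. Of 488 genes above 60% GC, 44.3% rose and 18.9% fell, with a median of 0.51. By exonic length 41.9% of the genes from 1000 to 2000 bases rose and 15.3% fell, against 12.1% and 48.5% of those over 8000 bases. Of the 86 genes of at most 500 bases 22.1% rose and 36% fell. The same order was present in P53-/- ESCs, where the medians of the outer GC classes were -0.90 and 0.37, and between the libraries of 1 medium the medians of these classes were 0.17 and -0.18 for 2i and, for serum, 0.21 and 0.05. Whether the libraries or the cells gave rise to this order was not tested.

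**Figure D4:**
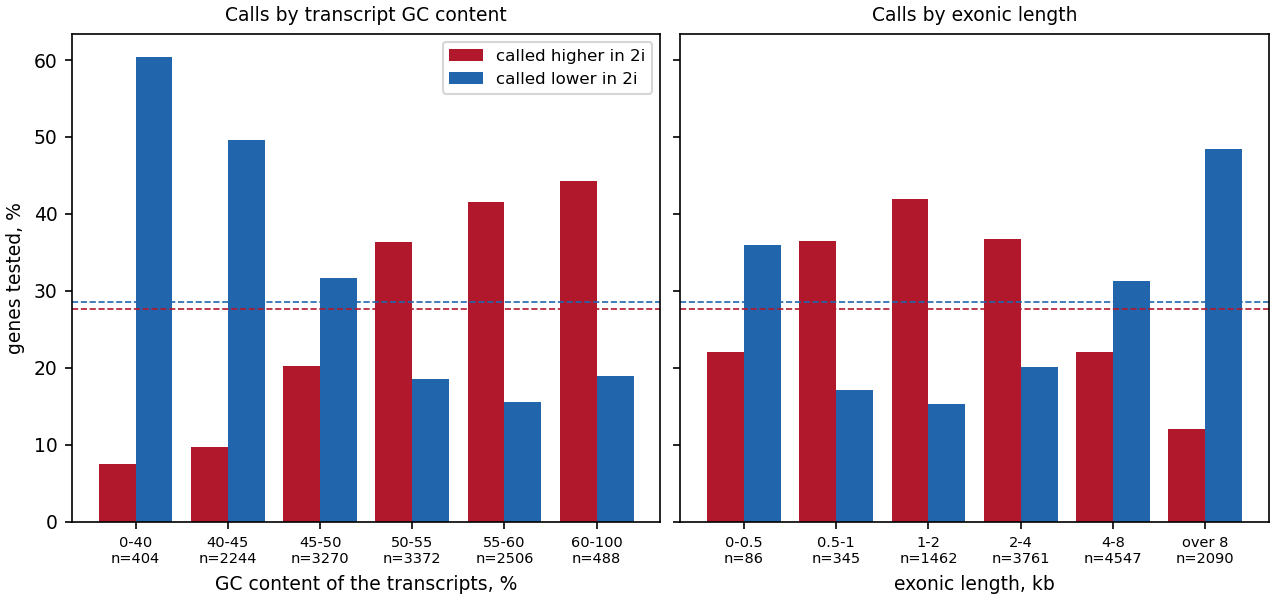
The bars are the percentages of genes called higher (red) and lower (blue) in WT 2i ESCs in classes of transcript GC content (left) and exonic length (right), with the number of genes under each class and dashed lines at the shares of all genes. Falls drop from 60.4% of the class of at most 40% GC to 18.9% above 60%, and reach 48.5% in the class over 8 kb.

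Each library was therefore also corrected for a smooth trend of its values on GC content and length before the fit. After the correction 2898 genes were called higher (23.4%) and 3286 lower (26.6%), 50% of those tested, and 4890 of the 6942 calls (70.4%) stood in the same direction while 5 turned. Ribosomal protein genes then gave 27 rises and 6 falls with a median of 0.30, and the respiratory chain genes 8 rises and 12 falls with a median of 0.12, so that the direction of the latter group by counts depended on the correction. The FGF-ERK feedback genes (16 lower, 6 higher), the germline genes, the cholesterol genes and the G2 and mitosis genes kept the direction of their majority.

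P53-/- ESCs grown in the same media gave a second contrast that shares no library with the first. There 3525 genes were higher in 2i (28.5%) and 3730 lower (30.2%), 58.7% in all. Of the 6942 genes called in WT, 6756 (97.3%) had the same sign in P53-/- ESCs, against 74.3% of the genes not called in WT. The 5766 genes called in the same direction in both made up 83.1% of the WT calls and 79.5% of the P53-/- calls, and 23 were called in opposite directions. The libraries also differed by medium in both genotypes. Small RNA genes held 92.7% to 94.0% of all FPKM in the 2i libraries and 97.4% to 99.4% in the serum libraries. The part of such library differences in the shared signs was not tested. The genes that rose in WT 2i had a median of 1.25 in P53-/- ESCs and those that fell a median of -1.20. The G2 and mitosis genes gave 29 falls and no rise there with a median of -0.91, in contrast to -1.39 in WT, a difference between lists that was not tested.

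**Figure D5:**
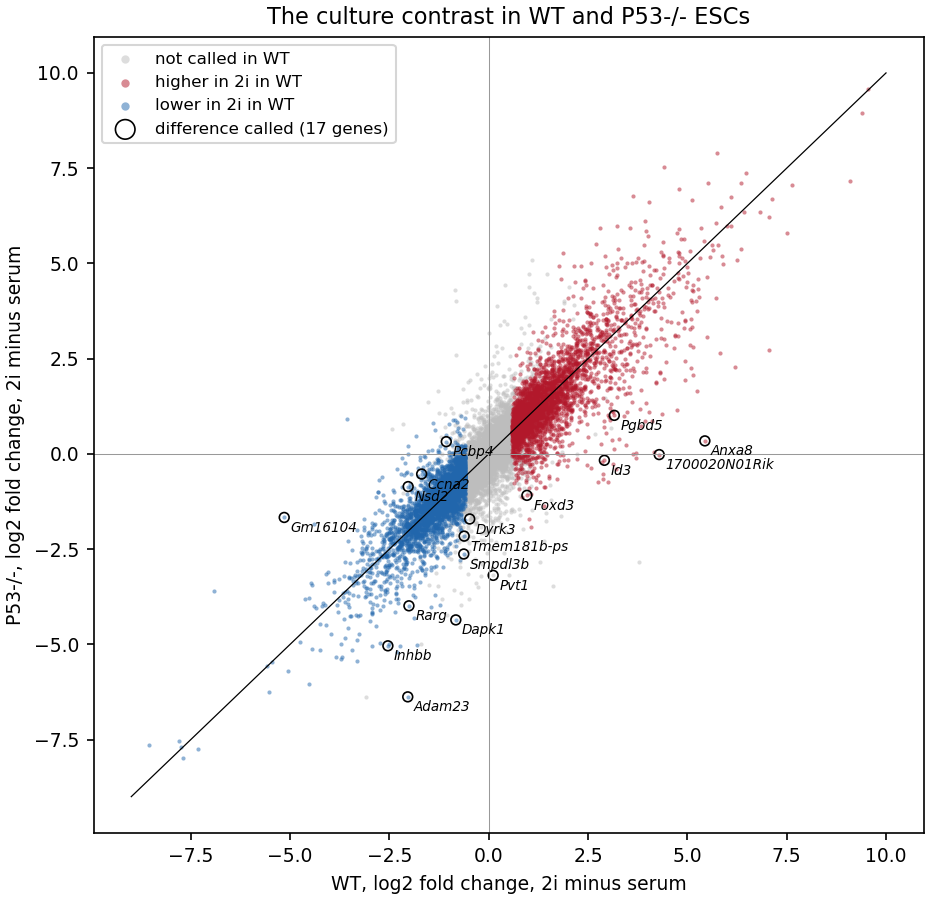
Each of the 12369 points is a gene, with the log2 fold change of 2i minus serum in WT ESCs on the x axis and in P53-/- ESCs on the y axis, coloured by its call in WT, and the line of equality in black. The points follow the line, and the 17 circled and labelled genes, for which the difference of the changes passed the threshold, lie off it.

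The difference of the changes itself was tested in the same fit and was called for 17 genes (0.137%), while 1642 had an unadjusted p under 0.05. Id3 was at 179 and 129 FPKM in WT 2i and 19.9 and 20.4 FPKM in WT serum, but its change in P53-/- ESCs was -0.17, a difference of 3.08 (SE 0.26, adjusted p = 0.00313). Anxa8 had its rise of 5.44 in WT only, with a change of 0.34 in P53-/- ESCs, where it was at 0.0593 FPKM in 1 library and at 0 in the other 3. Foxd3 rose in WT (0.96) and fell in P53-/- ESCs (-1.09), a difference of 2.05 (adjusted p = 0.0634). Ccna2 fell by 1.69 on the log2 scale in WT and by 0.53 in P53-/- ESCs, where the latter was below the fold threshold, and the difference was -1.16 (adjusted p = 0.0435). Inhbb fell by 2.54 in WT and fell by 5.04 in P53-/- ESCs, a difference of 2.49 (adjusted p = 0.0263).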

How the data were processed

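RNA depleted of ribosomal RNA from G1-sorted cells was sequenced as stranded libraries, and the authors deposited 1 table of FPKM values per gene symbol. The submitters' processing notes name STAR, Cufflinks, DESeq2 and mm9, without versions. The values hold no counts, so depth was estimated from the smallest steps of low values and gives no interval. Here FPKM was transformed as log2(FPKM + 0.1) and genes with a mean of at least 0.5 FPKM over 8 libraries were fitted with limma 3.58.1 in R 4.3.3 (4 groups, trended spread, Benjamini-Hochberg over 12572 genes, of which 203 were small RNA genes left out of the counts). A gene was called past a fold change of 1.5 where its adjusted p was also under 0.1, thresholds taken from the study's methods. The fit was tested on simulated data. GC content and exonic length came from GENCODE M21 by symbol, for 99.3% of the genes. The CHR (TTTGAA), E2F (TTCCCGC), sterol (TCACNCCAC), ATF4 (TGATGNAAT) and P53 half-site motifs were searched on both strands, the beta-catenin motif CTTTGAT too (1 of 10 promoters of its target list, 2.46% of all), which shares letters with TTTGAA.

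The gene lists, motifs and comparisons were chosen with earlier results of these data known. Named genes were the 12 largest rises and falls among called genes above 0 in all WT libraries, without overlap and with a mean of at least 5 FPKM, the 5 most abundant called in each direction, the 5 highest of those at 0 in a medium, and members of the lists, called ones or, for pluripotency, FGF-ERK, Wnt, DNA methylation and G1 lists, any. Uncalled members of other lists were named for their role after their values were seen. Alternatives were another pseudocount, filter, scaling, trend, threshold and set of libraries, chromosome medians, leaving out small RNA genes, and a GC and length correction added after seeing the data. Results for some list members are not reported here.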

Additional observations from a re-analysis of the deposited data

Results flagged for a closer look

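The change from serum to 2i differed between WT and P53-/- ESCs, by limma's test of the difference itself, for 17 genes, and each is given with WT minus P53-/- log2 fold change. In 4 of them the call held under all 19 alternatives. Adam23, a surface protein of the ADAM family, fell in both genotypes and less in WT (difference 4.34, adjusted p = 0.000317). The non-coding gene Pvt1 fell in P53-/- ESCs and was not called in WT (3.30, adjusted p = 0.00178), Id3 rose in WT and was not called in P53-/- ESCs (3.08, adjusted p = 0.00313), and the kinase gene Dapk1 fell farther in P53-/- ESCs (3.53, adjusted p = 0.0109).

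The other 13 were called under 7 to 16 of the alternatives, of which 18 could be run for 1700020N01Rik. Positive differences were those of Anxa8 (5.11), 1700020N01Rik (4.31), Inhbb (2.49), Pgbd5 (2.15), Foxd3 (2.05), Smpdl3b (2.00), the retinoic acid receptor gene Rarg (1.98), Tmem181b-ps (1.54) and the kinase gene Dyrk3 (1.22). Negative differences were those of Gm16104 (-3.48), Pcbp4 (-1.39), the histone methyltransferase gene Nsd2 (-1.18) and Ccna2 (-1.16). The adjusted p-values of the 13 genes ran from 0.0260 for Rarg to 0.0998 for Pcbp4. Gm16104 was at 0 in both WT 2i libraries and 1700020N01Rik at 0 in both WT serum libraries. The size of their differences therefore depends on the 0.1 FPKM added to each value. The P53-/- cells were of 2 clones per the study, and the labels do not tie a library to a clone.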

How the results depend on the processing

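The counts of genes higher and lower in 2i kept within 1.5 times of their values under every alternative run, in WT and in P53-/- ESCs: WT rises ran from 2898 (GC and length correction, chosen after seeing the data) to 4119 (no filter on low values) and WT falls from 3188 to 3928. Leaving out 1 library at a time gave 3061 to 3364 WT rises and 3188 to 3616 falls, and 3205 to 3405 and 3524 to 3646 in P53-/- ESCs. A library left alone in its group was assumed to vary like the other groups. Of the 6942 WT calls 70.4% were kept under the GC and length correction, with 5 turned, and 86.5% to 100% under the others, with none turned. The share of WT calls with the same sign in P53-/- ESCs was 97.7% with a pseudocount of 1, 95.9% without the filter, 97.8% with a minimum mean of 1 FPKM, 97.9% with an adjusted p under 0.05 and 96.5% to 98.2% with a library left out. The count of 17 genes whose change differed between the genotypes moved most, under alternatives added after seeing the data. It was 57 with a pseudocount of 1, 29 with quantile normalization, 31 without the mean-variance trend, 40 without small RNA genes, 53 with each library centred on its chromosome medians, 7 with an adjusted p under 0.05 and 9 to 49 with a library left out. It was 49 without WT 2i library 1, 48 without P53-/- serum library 1, 10 without P53-/- 2i library 2 or serum library 2, 11 without WT serum library 1 and 9 without WT serum library 2. The cause was not tested.

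Of 233 named genes called in WT, 35 lost the call under at least 1 alternative, 22 of them under the GC and length correction, apart from Klf2 whose direction turned, and 9 with chromosome medians. Direction turned for Hist2h2bb, which was 0.38 with quantile normalization, and for Klf2, which was -0.20 with the GC and length correction, both then not called. Calls lost when a WT library was left out were those of Cdkn2c, Cdkn2d, Dapk1, Gata4, Hist1h4a, Hist2h2bb, Id2, Klf2, Mdm2, Notum, Pou3f1, Rb1, Smpdl3b, Sox2, Tcf7, Tmem181b-ps and Znrf3. The fold of 21 named genes moved by over 1.5 times without 1 WT library, 14 of them without a 2i library and 7 without a serum library, and none changed direction. On the log2 scale, without 2i library 1 and without 2i library 2 respectively, Bhmt was 8.34 and 9.85, Xlr3c 5.26 and 6.92, H2-Eb1 5.12 and 6.34, Myc -6.55 and -4.62, Steap1 -3.53 and -5.38, Col4a1 -4.34 and -3.09, Sp5 5.74 and 3.87, Gbx2 -2.25 and -3.66, Peg10 -4.28 and -3.03, Meg3 -1.63 and -2.87, Hoxb13 3.66 and 5.45 and Perp -1.51 and -3.30. Without serum library 1 and without serum library 2, Aspa was 6.47 and 7.77, Hist1h4c -2.64 and -1.27, Hist1h4a -2.06 and -0.52, Dppa3 2.99 and 4.27 and Hoxa10 3.11 and 4.52. Lars2 and Dnmt3l are given above, and no fold is given for Pf4 and Hist1h2ao, listed at 0 in a medium. No paired analysis was possible because the columns carry no replicate numbers, so that libraries were numbered by column order as names only.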
